A study of Mus musculus with 12 samples.

Results

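The prefrontal transcriptome of male C57BL/6 mice (named C57BL/6 J in the methods) was compared between cocaine and saline 24 h after the last injection. Both groups were 10-week-old mice injected once a day for 14 days, with cocaine at 20 mg/kg or with saline, and each group gave 2 libraries that each pooled the prefrontal cortex of 5 animals. The comparison used 4 of the 12 libraries of the series, and the other 8 came from saline and cocaine groups killed 2 h or 7 d after the last injection. The values were FPKM (fragments mapped to a transcript, scaled to its length and to the mapped fragments of the library), of which the authors deposited 1 pooled value per group and locus. Genes entered with status OK, a gene name and a mean of at least 1 FPKM over both 24 h groups. Of the 42527 loci listed at 24 h, 17143 had status OK, 16185 of these carried a name, and 13840 reached the minimum. After keeping 1 locus per name 13495 genes remained, of which 13359 had a value above 0 in both groups and hence a ratio. Ratios are log2 cocaine over saline, and a gene was called at 1.5-fold either way. With 1 pooled value per group, the differences had no replicate check, no spread between replicates and no test. The tables hold no counts, so the depth behind each value is not known. The genes nearest the minimum were Tspan8, Kdm8 and Heyl just inside (log2 ratios of -0.25, -0.31 and -0.36) and Chp2, Cd84 and Dennd3 just outside (0.08, -0.17 and -0.33).

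Cocaine blocks the reuptake of dopamine, noradrenaline and serotonin. In cortical neurons synaptic activity induces immediate-early genes such as Fos, Egr1 and Arc within minutes, through kinase cascades and transcription factors that are already present, and these transcripts usually decay within hours. Several genes of the circadian clock, Per1 and Per2 among them, are induced by the same signals. The 24 h samples therefore bear on which transcripts still differed a day after the last dose.

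The labelled tissue was checked against marker genes. Transcripts of cortical excitatory neurons were abundant in both 24 h groups, with the vesicular glutamate transporter Slc17a7 at 522 FPKM (saline) and 532 (cocaine) and the cortical factor Tbr1 at 33.3 and 33.5. Olfactory bulb markers were at or near 0 (Eomes at 0.0223 and 0.00704 FPKM), the striatal dopamine receptor gene Drd2 was at 0.223 and 0.196, and the choroid plexus genes Kl and Folr1 were below 0.5 in both groups. Cortex markers were thus present, and markers of neighbouring tissues were low at similar levels in both groups.

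At 24 h most genes were close to equal in both groups. The log2 ratio had a median of 0.01 and a robust SD across genes of 0.127 (from the median absolute deviation), and its central 95% ran from -0.38 to 0.41. The absolute ratio was under 0.2 in 81.2% of genes at 24 h, in 72.9% at 2 h and in 68.4% at 7 d. Past 1.5-fold were 187 genes higher in cocaine (1.4%) and 142 lower (1.06%). At 2 h the counts were 270 (2.05%) and 189 (1.44%), and at 7 d 153 (1.16%) and 224 (1.7%). Among the 11492 protein-coding genes, 60 were higher (0.522%) and 59 lower (0.513%). The other 1867 names, mostly short or predicted RNAs and pseudogenes, gave 127 higher (6.8%) and 83 lower (4.45%). Small nuclear RNAs alone had 49 of 69 past the fold (71.0%), and loci under 300 bases had 63.4% of 134. At 24 h 10 of the 53 loci of 107 bases with a value above 0 in saline carried the identical value of 6.85 FPKM, so that values of such loci moved in steps of several FPKM. Ratios of these small RNAs are given as counts, and the named genes below are protein-coding unless stated.

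**Figure D1:**
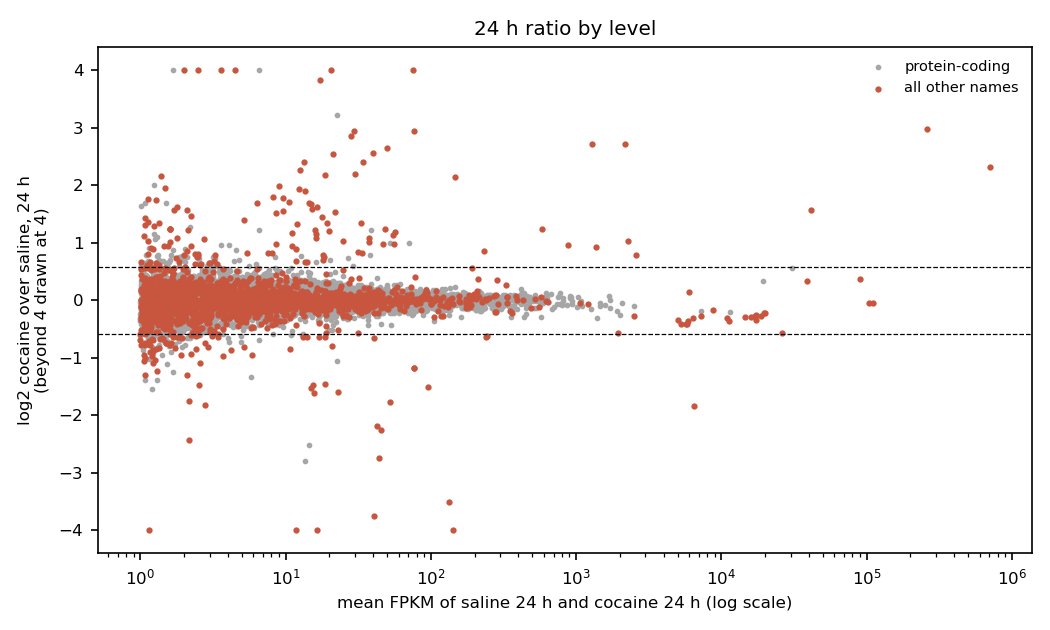
The log2 ratio of cocaine over saline at 24 h (vertical axis) against the mean FPKM of both groups on a log axis, 1 point per gene, with dashed lines at 1.5-fold and ratios beyond 4 drawn at 4. Protein-coding genes in grey lie mostly between the lines, where 1.04% of them are past the fold, and most points far outside are other names in red.

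The saline group of 24 h differed from each of the other saline groups in more genes than from cocaine at 24 h. After alignment on the median gene, saline of 24 h was past 1.5-fold higher than saline of 2 h in 1.66% of 12978 genes and lower in 1.23%, and against saline of 7 d the shares were 2.09% and 2.18% of 12780. Values of each time come from separately normalised tables. Cocaine at 24 h was therefore also set against the other saline groups.

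The scatter of the ratios differed with the level of the genes and was widest at the lowest levels. Between 1 and 2 FPKM the robust SD was 0.249 and 7.92% of 1729 genes were past 1.5-fold, whereas between 20 and 100 FPKM it was 0.0862 and 1.44% of 2920 genes were. At 100 FPKM and over the robust SD was 0.0832, but the share past the fold was higher again, at 2.34% of 725 genes. Ratios of low genes such as Npas4, Nr4a3 and Egr2 thus rest on a wider scatter than those of Arc, Egr1 or Bhlhe40.

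What was still higher at 24 h was first of all a group of activity-induced genes. Of 23 measured immediate-early transcription factors, 16 were higher in cocaine, 8 of them past 1.5-fold, and 1 was lower past 1.5-fold. The median log2 ratio of the list was 0.30 at 24 h, against 1.08 at 2 h and 0.41 at 7 d. Over all genes the share higher by any size was 53.2%, and the shares past 1.5-fold were 1.4% higher and 1.06% lower.

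Fos, a subunit of the AP-1 transcription factor, stood at 24 h at 3.95 FPKM in saline against 9.24 in cocaine, a log2 ratio of 1.23. It had been 2.02 and 14.3 at 2 h (2.82) and was 1.59 and 4.66 at 7 d (1.55). The 3 cocaine values were each above the 3 saline values. Egr1, a zinc-finger factor of the same early wave, was at 35.1 and 70.0 FPKM at 24 h (0.995), at 41.9 and 121 at 2 h (1.54) and at 22.6 and 38.4 at 7 d (0.76). Its paralogue Egr2 had the largest ratio of the list, 1.68, at low levels of 0.716 and 2.30 FPKM. With 1 FPKM added to both values the Egr2 ratio was 0.94. Junb, a partner of Fos in AP-1, was at 20.2 and 33.7 FPKM (0.74, from 2.44 at 2 h).

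The orphan nuclear receptors of the Nr4a family diverged at 24 h. Nr4a1 was at 15.4 FPKM in saline and 25.02 in cocaine (0.70), and Nr4a3 at 1.44 and 2.46 (0.77), both reduced from 2.19 and 1.59 at 2 h. Nr4a2 went the other way, at 2.56 in saline and 1.49 in cocaine (-0.78), after 1.44 and 3.01 at 2 h (1.06). The saline value of 24 h was the high one for Nr4a2. Against the saline groups of 2 h and 7 d, aligned on the median gene, cocaine at 24 h differed by 0.03 and 0.01. Npas4, a neuronal factor induced by calcium influx, was at 1.38 and 2.32 FPKM (0.74). Csrnp1, a nuclear protein induced by growth signals, was at 2.36 and 3.95 (0.74), and its cocaine level was 3.95 at 2 h as well.

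Fosb, Fosl2 and Klf4 were within 0.2 of the saline level at 24 h. Fosb, whose stable splice product is known for building up during repeated cocaine, was at 1.57 and 3.67 FPKM at 2 h (1.23) and at 1.99 and 1.86 at 24 h (-0.10). Fosl2 went from 0.83 to -0.03 and Klf4 from 1.03 to 0.14. Egr3, which had been higher by 0.35 at 2 h, was at 51.9 in saline and 38.8 in cocaine at 24 h (-0.42), and again the saline value was the high one, since saline was at 37.6 at 2 h and 38.3 at 7 d. Klf10, at 8.82 and 12.98 FPKM (0.56), lay just under the fold.

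The saline group of 24 h was itself higher in immediate-early transcripts than the other saline groups. Its aligned level was above that of both other saline groups in 15 of the 21 members with all values, with list medians of 0.33 over saline at 2 h and 0.39 over saline at 7 d. Arc was the clearest case, at 23.2 FPKM in saline at 24 h against 5.59 and 6.47 in saline at 2 h and 7 d. What part this has in the smaller ratios of 24 h was not tested. Cocaine at 24 h was above both other saline groups in 17 of the 21, by list medians of 0.41 and 0.51.

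**Figure D2:**
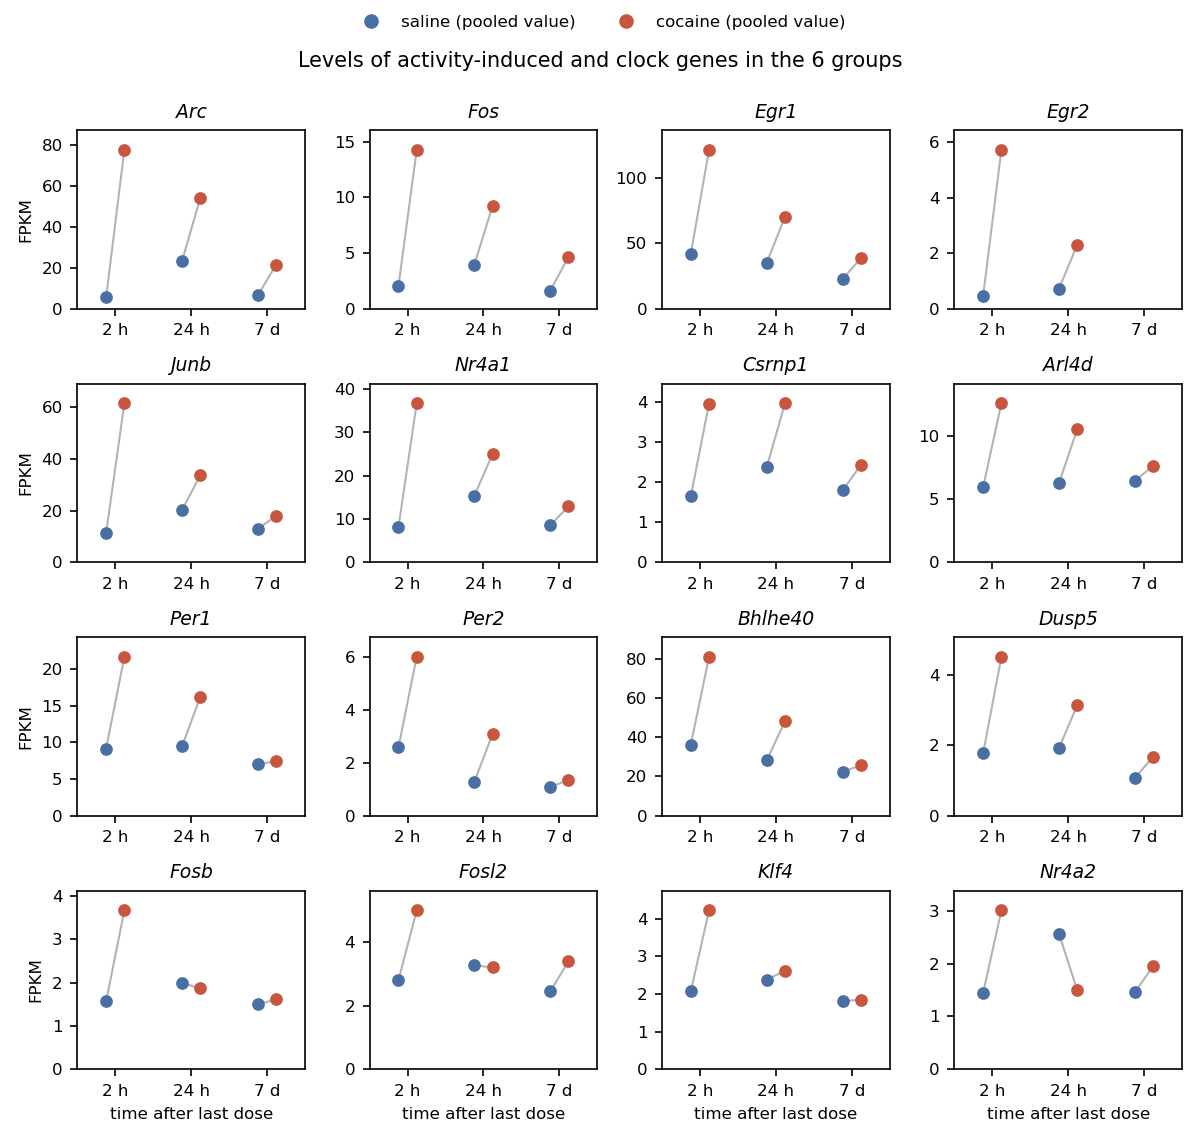
FPKM (vertical axis, starting at 0, a scale of its own in each panel) of 16 genes in saline (blue) and cocaine (red) at 2 h, 24 h and 7 d, each point 1 pooled value of 2 libraries. In Arc, Fos and Egr1 cocaine is above saline at each time with a narrowing gap, in Fosb and Klf4 the gap is nearly closed at 24 h, and in Nr4a2 saline is the higher group at 24 h; Egr2 had no value meeting the minimum at 7 d.

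Among activity-regulated effectors, the proteins that act at the synapse or in signalling after the early factors, 14 of 20 were higher, against 53.2% of all genes, and 4 were past 1.5-fold, against 1.4%, with a median of 0.22 (0.34 at 2 h, 0.03 at 7 d). Arc, a cytoskeletal protein that drives the internalisation of AMPA receptors, was at 23.2 FPKM in saline and 54.1 in cocaine (1.22), from 5.59 and 77.8 at 2 h (3.80). Arl4d, a small GTPase, was at 6.29 and 10.5 (0.75), Trib1, a pseudokinase, at 3.63 and 5.86 (0.69), and Per1 is described with the clock genes. Sik1 and Plk3, both kinases, missed the fold at 0.58. Of the 6 members that were lower, 3 with known synaptic roles are given, picked after their values were seen. Bdnf, the neurotrophin, was at 7.61 and 6.62 FPKM (-0.20), the scaffold gene Homer1 at 34.5 and 30.3 (-0.19) and the secreted pentraxin gene Nptx2 at 23.1 and 18.1 (-0.35).

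Feedback inhibitors of the ERK kinase pathway were a further group in which a part of the 2 h difference was left. Of 16 measured, 13 were higher, against 53.2% of all genes, and the median was 0.20 (0.50 at 2 h, 0.13 at 7 d). Dusp5, a nuclear ERK phosphatase, was past the fold at 1.93 and 3.15 FPKM (0.71, from 1.35 at 2 h). Dusp6, its cytoplasmic counterpart, was at 18.4 and 25.7 (0.49, from 1.20), Dusp1 at 11.9 and 16.7 (0.49, from 2.05) and Spry4 at 1.64 and 2.44 (0.58, from 1.16). The kinases of the MAP kinase cascade themselves had a median of 0.04, with 25 of 35 higher. Past 1.5-fold were 0 of 35, against 1.4% of all genes higher and 1.06% lower.

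The circadian clock loop had 4 of 18 members past 1.5-fold, each higher, against 1.4% of all genes. By any size 13 of 18 were higher, against 53.2%. In this loop CLOCK, NPAS2 and BMAL1 (the product of Arntl) activate transcription through E-boxes, and PER and CRY proteins repress them. Members of the repressing limb were the higher ones. Per2 was at 1.28 FPKM in saline and 3.09 in cocaine (1.28, against 1.21 at 2 h and 0.34 at 7 d), and Per1 was at 9.46 and 16.2 (0.77, from 1.24). Bhlhe40, a repressor that competes for E-boxes, was at 28.1 and 48.1 (0.78, from 1.16), and Ciart, a repressor of CLOCK and BMAL1, was at 4.90 and 7.56 (0.63, from 0.31). Per3 (0.40) and Cry1 (0.39) were higher by less than 1.5-fold. The activator genes Clock, Arntl and Npas2 were at 0.00, -0.13 and -0.19. By 7 d Per1 (0.09), Bhlhe40 (0.19) and Ciart (-0.13) were within 0.2 of saline.

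Saline levels of these clock genes differed between the times, so that the size of the 24 h difference depends on the saline group it is set against. Injections were given in the morning, so by this schedule mice killed at 2 h were sampled about 2 h later in the day than those of 24 h and 7 d. Saline of 2 h is thus not a control matched for time of day. The part of time of day in these levels was not tested. Ciart was at 8.22, 4.90 and 4.10 FPKM in saline at 2 h, 24 h and 7 d, and Per2 was at 2.59, 1.28 and 1.07. Set against saline of 2 h, cocaine at 24 h was -0.14 for Ciart, 0.24 for Per2 and 0.39 for Bhlhe40. Set against saline of 7 d it was 0.86, 1.51 and 1.08. The activator genes were at 0.00 (Clock), 0.06 (Arntl) and -0.11 (Npas2) against saline of 2 h and at 0.23, -0.22 and 0.23 against saline of 7 d. Per1 stayed past the fold against either, at 0.80 and 1.18.

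Across all genes few of the 2 h differences were still there at 24 h. Of the 238 genes past 1.5-fold higher at 2 h with a ratio at both times, 39 (16.4%) were past it at 24 h in the same direction, against 1.4% of all genes. A further 81 (34.0%) were within 0.2 of equal and 99 lay between. In the opposite direction 19 (7.98%) were past 1.5-fold, against 1.06% of all genes. Their median fell from 0.83 to 0.20, and 172 kept the sign. Of 163 genes lower at 2 h, 18 (11.0%, against 1.06% of all genes) were still past the fold and 71 (43.6%) were within 0.2. Past the fold in the opposite direction were 21 (12.9%, against 1.4% of all genes), more than the 18 that persisted. The median of the 163 went from -0.79 to -0.03. Restricted to protein-coding genes, 21 of 166 increases (12.7%, against 0.522% of all such genes) and 4 of 65 decreases (6.15%, against 0.513%) were past the fold at both times. Increases were thus partly retained on balance, while the median decrease was gone. Across 12539 genes the ratios of 2 h and 24 h had a Pearson correlation of 0.06 and a Spearman correlation of 0.11, which is a description over genes and not over animals.

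The 21 protein-coding genes past 1.5-fold higher at both times were mostly list members, and 12 of them were immediate-early factors or effectors. In 18 of the 21 the ratio was smaller at 24 h than at 2 h, the others being Avp, Per2 and Hk2. Hk2, the inducible hexokinase, was at 0.786 and 1.67 FPKM at 2 h (1.08), at 0.775 and 1.72 at 24 h (1.15) and at 2.23 and 1.17 at 7 d (-0.92), so that here the high saline value was that of 7 d. Avp, which encodes vasopressin, was at 24 h at 0.141 FPKM in saline against 3.23 in cocaine (4.51) and at 1.21 and 1.90 at 2 h (0.66). With 1 FPKM added to both values the Avp ratio at 24 h was 1.89. Gpr3, a constitutively active receptor that raises cAMP, was at 1.49 and 2.44 (0.71), Foxo6, a forkhead factor, at 2.30 and 3.49 (0.60), Paqr5, a membrane progestin receptor, at 1.22 and 1.93 (0.66), and Rsrp1 at 23.2 and 35.1 (0.60). Of the 18 with a ratio at 7 d, 15 were higher there by any size and 5 were past 1.5-fold.

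The 4 decreases common to 2 h and 24 h were Ttr, Gmfg, Theg and Tcf7l1. Ttr, the thyroxine carrier made by the choroid plexus, was at 1.80 and 1.10 FPKM at 24 h (-0.71), at 1.90 and 0.461 at 2 h (-2.04) and at 0.284 and 6.54 at 7 d (4.53). Only 2 of 10 choroid plexus genes entered the comparison, and the share of the dissection in these values was not tested. Gmfg, a regulator of actin branching, was at 2.08 and 1.34 (-0.63). It was also lower by 0.75 and 0.97 against the saline of 2 h and 7 d.

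**Figure D3:**
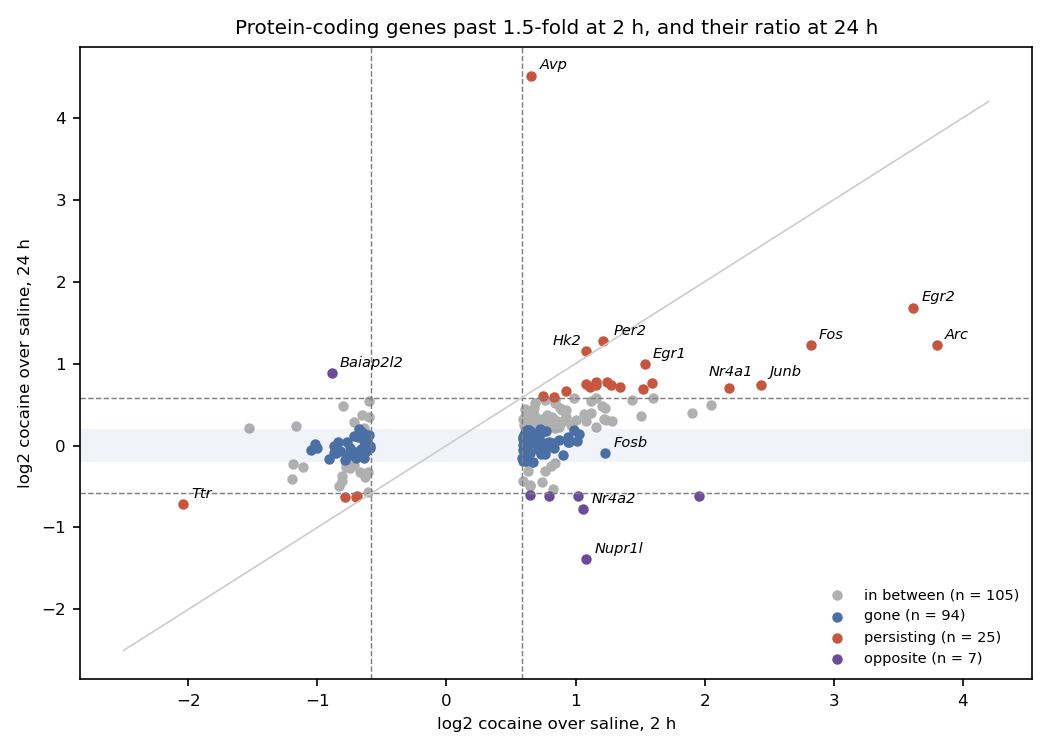
Log2 cocaine over saline at 24 h (vertical axis) against 2 h (horizontal axis) for protein-coding genes past 1.5-fold at 2 h, 1 point per gene, with dashed lines at 1.5-fold, a shaded band within 0.2 of equal and a diagonal of equal ratios. Most points lie below the diagonal on the right side: 25 are still past the fold (red), 94 are within 0.2 (blue), 105 lie between (grey) and 7 are past the fold in the opposite direction (purple).

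Genes whose 2 h increase was gone included Sdf2l1, a chaperone partner of the endoplasmic reticulum (1.01 to 0.05), the small heat shock protein gene Hspb1 (0.94 to 0.04), Tiparp, a target of the aryl hydrocarbon receptor (0.99 to 0.19), Adm, which encodes adrenomedullin (0.94 to 0.10), and Rasd1, a dexamethasone-induced GTPase (0.90 to -0.12). Glucocorticoid receptor targets as a list had a median of 0.31 at 2 h and of 0.02 at 24 h. At 24 h 8 of 15 were higher, near the 53.2% of all genes. Past 1.5-fold were 0 of 15, where 1.4% of all genes were higher and 1.06% lower. Fkbp5, a co-chaperone of that receptor, went from 0.64 to 0.10. The highest of the list at 24 h was Sult1a1 (0.42) and the lowest Arrdc2 (-0.53).

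The promoters of genes that moved together are shown because 12 of the 15 persisting protein-coding increases with a RefSeq promoter held the letters TGACG, the core of the cAMP response element. They are the 250 bases before the start listed first for each gene (RefSeq, GRCm38.p6), 5′ to 3′ on the gene's strand, and Ciart is added as the clock gene called only at 24 h. Capitals mark matches, on either strand, of TGACG (which reads CGTCA on the other strand), the full response element TGACGTCA, the E-box CACGTG, the early growth response site GCGNGGGCG and the CArG box of serum response factor. A match of TGACGTCA also counts as TGACG.
Fos: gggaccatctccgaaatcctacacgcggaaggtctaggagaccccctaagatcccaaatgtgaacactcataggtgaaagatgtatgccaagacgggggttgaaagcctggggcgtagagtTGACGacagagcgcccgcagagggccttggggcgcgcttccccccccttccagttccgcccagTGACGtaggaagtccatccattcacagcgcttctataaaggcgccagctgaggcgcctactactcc
Npas4: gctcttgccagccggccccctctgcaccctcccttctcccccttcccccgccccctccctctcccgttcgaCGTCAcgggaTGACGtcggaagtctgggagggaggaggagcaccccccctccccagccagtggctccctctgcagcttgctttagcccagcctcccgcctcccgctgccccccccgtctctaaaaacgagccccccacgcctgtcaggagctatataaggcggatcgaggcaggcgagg
Nr4a1: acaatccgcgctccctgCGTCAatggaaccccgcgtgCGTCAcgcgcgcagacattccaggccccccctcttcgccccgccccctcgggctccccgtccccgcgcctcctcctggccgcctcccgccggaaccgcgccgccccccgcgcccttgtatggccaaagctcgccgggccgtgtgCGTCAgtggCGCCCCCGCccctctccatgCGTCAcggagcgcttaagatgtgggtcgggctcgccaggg
Arl4d: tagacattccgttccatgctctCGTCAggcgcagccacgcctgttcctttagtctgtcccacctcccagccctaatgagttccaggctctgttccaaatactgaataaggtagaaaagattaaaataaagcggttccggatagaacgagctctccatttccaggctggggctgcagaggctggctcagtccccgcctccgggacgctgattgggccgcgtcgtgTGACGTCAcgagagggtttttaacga
Dusp5: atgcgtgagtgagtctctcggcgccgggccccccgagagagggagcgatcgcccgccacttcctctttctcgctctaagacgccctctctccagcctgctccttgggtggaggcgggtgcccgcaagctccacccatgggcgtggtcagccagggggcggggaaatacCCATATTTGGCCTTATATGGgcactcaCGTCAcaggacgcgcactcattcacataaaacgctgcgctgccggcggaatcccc
Per1: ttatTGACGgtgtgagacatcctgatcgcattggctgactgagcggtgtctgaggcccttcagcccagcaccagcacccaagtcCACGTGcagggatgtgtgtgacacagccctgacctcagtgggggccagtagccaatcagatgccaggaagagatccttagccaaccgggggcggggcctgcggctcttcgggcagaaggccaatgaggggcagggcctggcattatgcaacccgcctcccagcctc
Ciart: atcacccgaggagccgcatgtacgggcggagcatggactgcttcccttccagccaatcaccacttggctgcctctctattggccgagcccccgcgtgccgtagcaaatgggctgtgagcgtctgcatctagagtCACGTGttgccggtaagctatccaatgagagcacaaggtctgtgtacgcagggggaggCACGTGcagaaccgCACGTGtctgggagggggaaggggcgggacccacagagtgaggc

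The windows are chr12:85473640-85473889 for Fos, chr19:4989972-4990221 for Npas4, chr15:101266596-101266845 for Nr4a1, chr11:101665291-101665540 for Arl4d, chr19:53528895-53529144 for Dusp5, chr11:69098699-69098948 for Per1 and chr3:95882229-95882478 for Ciart, with Npas4 and Ciart on the minus strand and the others on the plus strand. TGACG was in 12 of 15 windows (80%), against 27.4% of the 8781 measured protein-coding genes with a window and 11 of 43 genes (25.6%) whose 2 h increase was gone. Nr4a1 held 4 such matches, and Fos and Npas4 held 2 each. Arl4d alone of the 15 held the full TGACGTCA, 26 bases before its start, where 2.77% of measured genes hold it. The E-box was in 3 of 15 against 8.48%, the motif GCGNGGGCG in 1 of 15 against 9.61% and the CArG box in 1 of 15, Dusp5, against 1.12%. The AP-1 motif TGANTCA was in 1 of 15, Avp, against 3.78%. Per1 held an E-box 166 bases before its start, and Ciart held 3. These are matches of letters only, the 15 genes were chosen by their ratios, and the difference in shares was not tested.

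Of the 60 protein-coding genes higher at 24 h, 29 had been measured at 2 h without passing the fold upward there. Tceanc2, named for its similarity to a transcription elongation factor, was at 24 h at 4.38 FPKM in saline against 41.0 in cocaine (3.23), while the other 4 groups were between 4.02 and 4.98. Ddx39b, an RNA helicase of messenger RNA export, was at 46.8 and 93.8 (1.003), while the other 4 groups were between 43.3 and 46.4. In both genes the cocaine group of 24 h stood alone. Zfp185, an actin-binding LIM protein gene, was at 0.397 and 12.8 FPKM (5.01) and reached the minimum at neither of the other times.

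Of 9 measured members of the interferon and inflammatory list 6 were higher at 24 h, against 53.2% of all genes, and 2 were past 1.5-fold, against 1.4%, with a median of 0.27 (0.17 at 2 h, 0.05 at 7 d). Isg15, a ubiquitin-like modifier, was at 2.44 and 4.76 FPKM (0.96) and Ifit1, which binds foreign RNA, at 0.982 and 1.68 (0.78). Outside the list Xaf1 was at 2.79 and 5.42 (0.96) and Rtp4 at 1.19 and 2.16 (0.86), both interferon-inducible and both picked for their size. Against the saline of 7 d, Isg15 remained at 0.74, Ifit1 at 0.75 and Xaf1 at 0.61, whereas Rtp4 was at -0.16. Against the saline of 2 h, Isg15 (0.88) and Xaf1 (0.60) were past the fold, and Ifit1 (0.31) and Rtp4 (0.50) were not. All 4 genes are expressed at few FPKM, and with a minimum of 5 FPKM the list median was 0.11.

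The larger decreases at 24 h rested mostly on the saline group. BC024978 was at 23.6 FPKM in saline and 3.41 in cocaine (-2.79), with 2.34 and 3.06 in the other saline groups. St7 was at 24.6 and 4.31 (-2.51), with saline at 5.02 at 2 h and 16.8 at 7 d. Foxp4, a forkhead repressor, was at 30.7 and 14.8 (-1.05), with saline at 13.4 and 7.73. The predicted gene 5830428H23Rik was at 8.27 and 3.28 (-1.34), with saline at 3.24 and 3.17. In each of these 4 genes the saline value of 24 h was the highest of the 6 groups. In Helq, Lama5 and H3f3c the cocaine value of 24 h was the lowest of the 6. Helq, a DNA repair helicase, was at 2.36 and 0.998 (-1.24), with saline at 1.54 and 2.11. Lama5, a laminin chain of basement membranes, was at 1.60 and 0.844 (-0.92), with saline at 1.63 and 1.49. H3f3c, a histone variant gene, was at 2.09 and 0.969 (-1.11), with saline at 1.88 and 1.86. Saline of 24 h was also the highest of the 6 in Helq and H3f3c, though not in Lama5.

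Setting cocaine at 24 h against each of the saline groups of 2 h, 24 h and 7 d gave, for protein-coding genes, 18 of 42 increases and 7 of 50 decreases past 1.5-fold over all 3, counting genes with all values. The 18 and 7 genes are 0.163% and 0.0635% of the 11023 such genes. These shares are no background for the calls, since a gene past the fold over all 3 is a 24 h call already. The 3 comparisons share the cocaine group, so the count describes the controls and is not independent support. The 18 included Arc, Fos, Egr1, Junb, Nr4a1, Npas4, Csrnp1, Arl4d, Trib1, Per1, Dusp5, Gpr3, Ddx39b, Tceanc2, Isg15 and Xaf1. The 7 included Gmfg, Helq, Lama5 and H3f3c. Nr4a2, Bhlhe40, Per2 and Ciart were not among the genes past the fold over all 3.

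Beyond these groups the shifts at 24 h were small. Of 43 gene lists, 34 had no member past 1.5-fold, where 1.04% of all protein-coding genes were past it. Medians were 0.1 or more in 6 lists and -0.1 or less in 7. Several lists of neuronal function had medians near 0. NMDA and AMPA receptor subunits had a median of 0.00 with 7 of 14 higher, and GABA-A receptor and GABA synthesis genes 0.02 with 10 of 16. Dopamine and adrenergic signalling genes were at 0.05 with 7 of 11 higher. Interneuron neuropeptides and markers were at 0.03, with 11 of 14 higher. Synaptic vesicle and SNARE genes (0.06, 19 of 24 higher), potassium channels (0.08, 21 of 29) and cortical layer genes (0.09, 15 of 17) also leaned upward by count. Neurotrophins and their receptors (-0.11, 3 of 8 higher) leaned downward. Of all genes 53.2% were higher. Among the layer genes Nr4a2, also a marker of deep layers, was lowest. Glycolysis genes had a median of 0.06 with 14 of 16 higher, and Hk2 was the member past the fold.

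**Figure D4:**
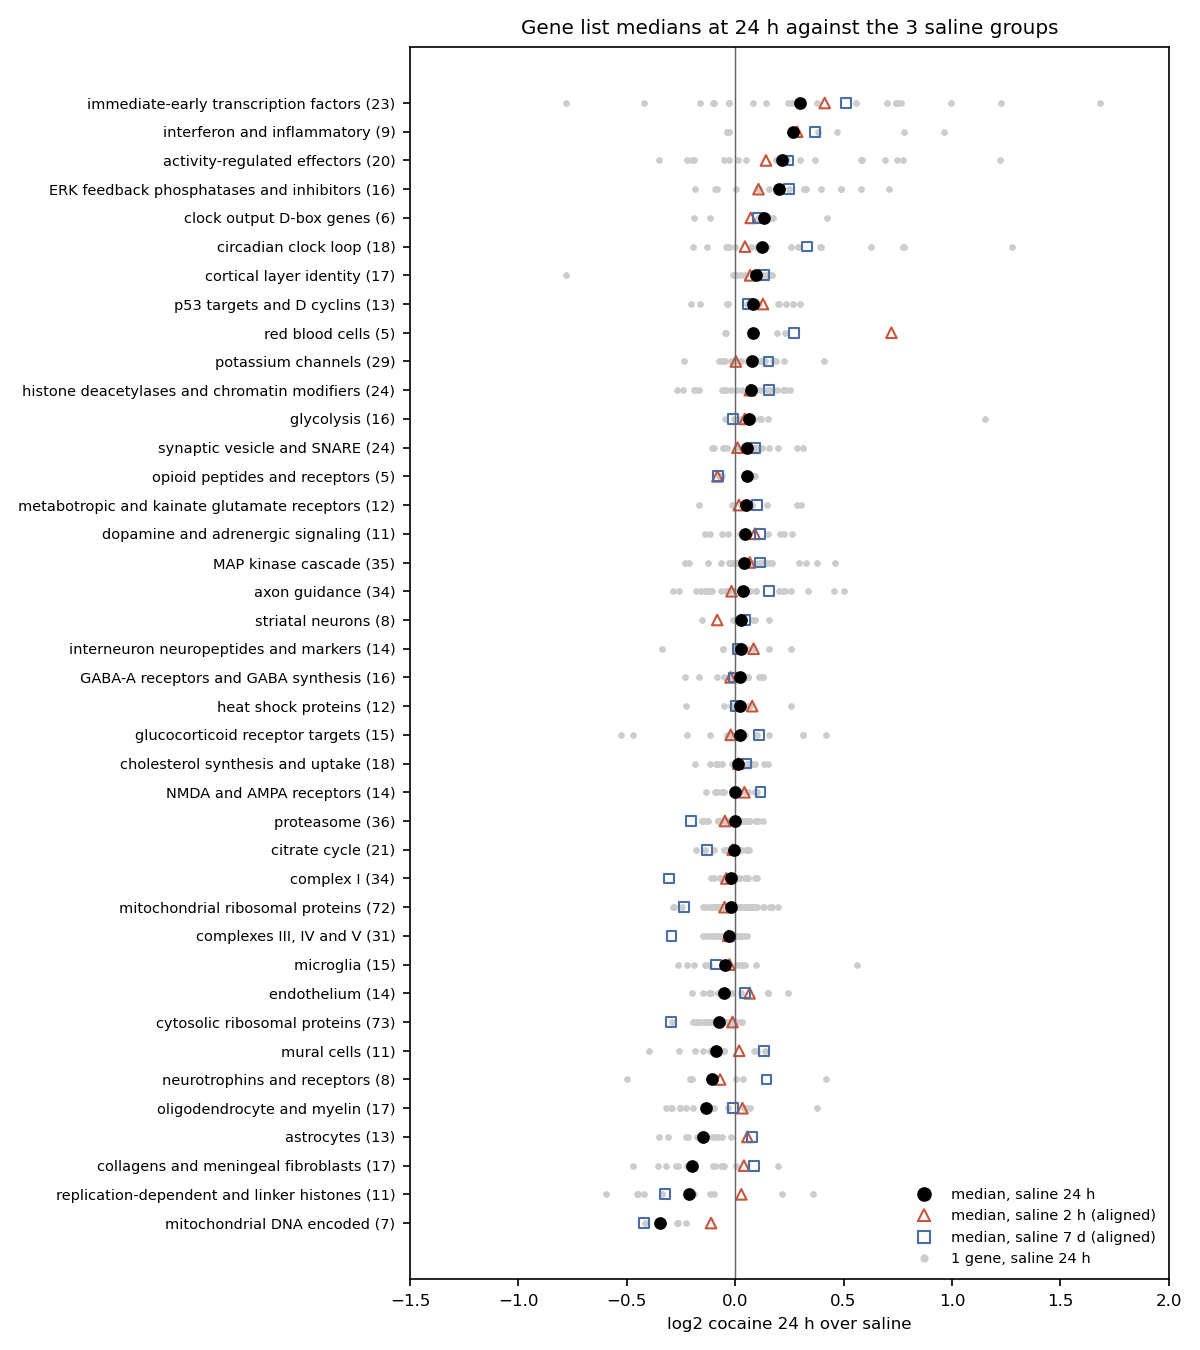
Median log2 of cocaine 24 h over saline for 40 gene lists with at least 5 measured members (number in brackets), as black points against saline of 24 h, red triangles against saline of 2 h and blue squares against saline of 7 d, with single genes against saline of 24 h as grey points. Immediate-early factors lead at 0.30 and are above 0 against each saline group, while astrocytes and collagens are below 0 only against saline of 24 h.

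Lists of glial and meningeal genes had medians below 0 at 24 h. Of 13 measured astrocyte genes 0 were higher, against 53.2% of all genes, with a median of -0.15, where the same list was at 0.16 at 2 h and 0.28 at 7 d. Gfap, the intermediate filament of astrocytes, was at 41.3 FPKM in saline and 32.4 in cocaine (-0.35), and the water channel gene Aqp4 was at 32.7 and 26.4 (-0.31). Aldh1l1 was the least changed at -0.02. Collagen and meningeal fibroblast genes had 2 of 17 higher and a median of -0.20 (0.13 at 2 h, 0.30 at 7 d), from Lum at -0.47 to Col3a1 at 0.20. Oligodendrocyte and myelin genes had 4 of 17 higher and a median of -0.14 (0.00 at 2 h, 0.03 at 7 d), with the myelin protein genes Mbp at 482 and 392 FPKM (-0.30), Mog at -0.19 and Mag at -0.10. Pdgfra, of oligodendrocyte precursors, was lowest at -0.32 and Gpr17, of committed precursors, highest at 0.38. Mural cells (-0.09, 3 of 11 higher), endothelium (-0.05, 4 of 14) and microglia (-0.04, 6 of 15) were closer to 0. Fewer cells of a type and less RNA per cell cannot be told apart in these bulk samples.

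The shifts of the astrocyte, oligodendrocyte and collagen lists were not seen against the other saline groups. Microglia stayed slightly below 0, with medians of -0.03 against saline of 2 h and -0.09 against saline of 7 d. The saline group of 24 h was above both other saline groups in 12 of 13 astrocyte genes and in 12 of 16 collagen and meningeal genes. Cocaine at 24 h, set against saline of 2 h and of 7 d, had medians of 0.06 and 0.08 for astrocytes, of 0.04 and 0.09 for collagens and meninges and of 0.03 and -0.01 for oligodendrocytes. Gfap was at 31.9 and 31.4 FPKM in the other saline groups, next to 32.4 in cocaine at 24 h.

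Transcripts encoded by mitochondrial DNA were lower in 7 of 7 measured genes, with a median of -0.35 (0.07 at 2 h, -0.19 at 7 d), from mt-Nd3 at -0.42 to mt-Co2 at -0.23. Against the saline of 2 h and 7 d the medians were -0.11 and -0.42, and cocaine at 24 h was below both in 6 of 7. The nuclear-encoded subunits differed less, with a median of -0.02 and 22 of 34 lower for complex I and a median of -0.03 and 23 of 31 lower for complexes III, IV and V. Cytosolic ribosomal protein genes were slightly lower, in 68 of 73 genes against 46.8% of all genes, with a median of -0.07 and Rps27 lowest at -0.29. Against saline of 2 h the median of this list was -0.01. Proteasome (0.00) and mitochondrial ribosome genes (-0.02) were near equal. At 7 d these nuclear lists had medians between -0.29 and -0.22, lower than the 24 h medians against saline of 24 h. Set against saline of 7 d, however, cocaine at 24 h had medians of -0.30 for complex I, -0.29 for complexes III, IV and V, -0.30 for the cytosolic ribosome, -0.24 for the mitochondrial ribosome and -0.21 for the proteasome, so that this difference between the times depended on the control. Histone genes had 2 of 11 higher and a median of -0.21, which was 0.03 against saline of 2 h and -0.32 against saline of 7 d. The linker histone gene Hist1h1c, at 15.7 and 10.4 FPKM (-0.60), was the member past the fold.

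**Figure D5:**
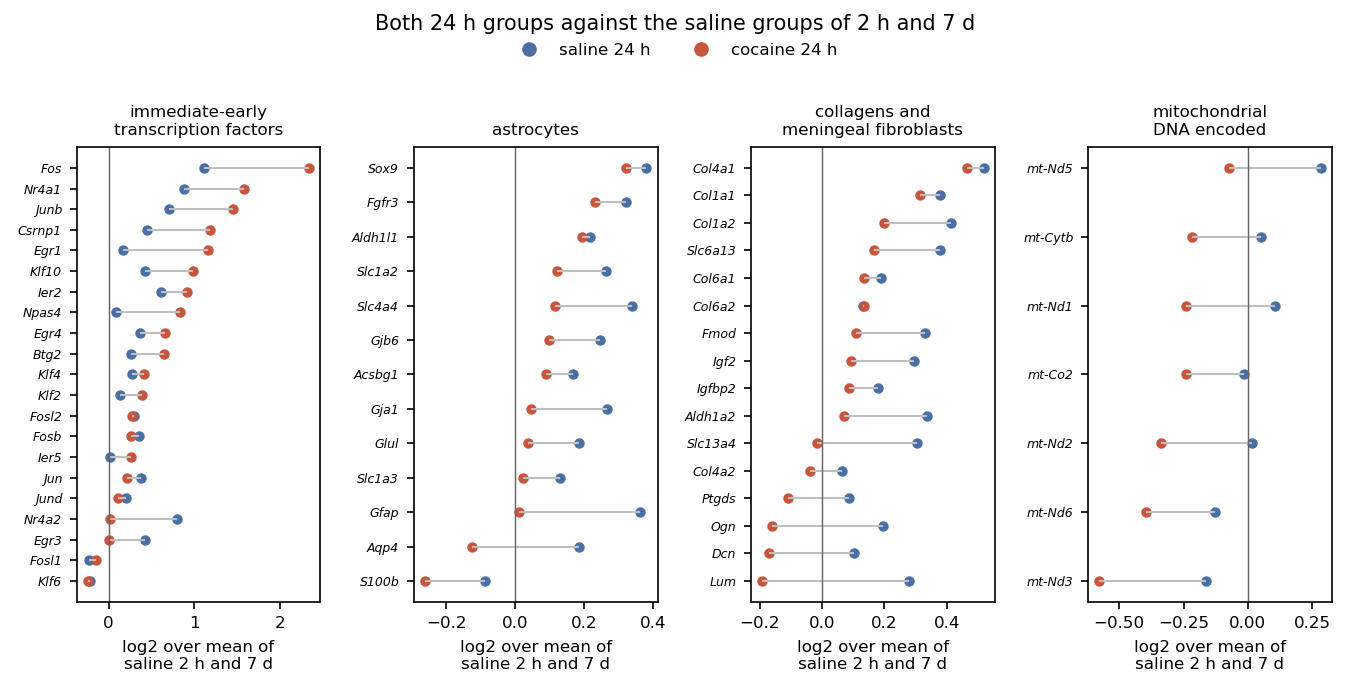
Levels of single genes in saline (blue) and cocaine (red) at 24 h, each as log2 over the mean of the saline groups of 2 h and 7 d (horizontal axis, vertical line at equal, 1 row per gene with all values). In immediate-early factors cocaine lies mostly to the right of saline, in astrocytes and collagens the saline points lie to the right of 0, and in mitochondrial transcripts cocaine lies to the left of saline in 7 of 7 genes.

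Most genes called at 24 h were not past the fold in the same direction at 7 d. Of the 187 higher genes 133 had a ratio at 7 d, of which 27 were past 1.5-fold higher, 34 were within 0.2 of equal and 35 were past 1.5-fold lower. Over all genes 1.16% were past 1.5-fold higher at 7 d and 1.7% lower, so calls in both directions were above these shares. Of the 142 lower genes 120 had a ratio, of which 23 were past the fold lower, 34 within 0.2 and 20 opposite, against 1.7% of all genes past the fold lower at 7 d. Among protein-coding genes 10 calls in all were past the fold in the same direction at both times. Arc (1.74), Fos (1.55), Egr1 (0.76), Dusp5 (0.63) and Nr4a1 (0.61) were the persisting increases still past it at 7 d. For Arc and Fos the ratio at 7 d was above that at 24 h, while the cocaine level was lower at 7 d, at 21.6 FPKM for Arc and 4.66 for Fos.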

How the data were processed

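RNA from the prefrontal cortex was sequenced in 12 libraries (Illumina HiSeq2000, paired ends). Per the labels and the submitters' processing notes, the authors used CASAVA 1.8.2, Trimmomatic 0.32, TopHat2 2.0.12 and Cufflinks 2.2.1 with Cuffdiff. The notes name GRCm38 and the methods name mm9. Of the gene names with their own RefSeq symbol, 99.8% overlapped that gene in GRCm38.p6, so loci are given on GRCm38, with 1-based starts. The authors deposited 1 table per time with pooled FPKM per group. Its columns of fold change, test statistic, p-value and q-value hold the authors' own comparisons and were not used. Columns were assigned to saline and cocaine by their names, checked on the supplementary tables' group columns. Each table was normalised separately. Saline groups of other times were therefore aligned on the median ratio of all genes.

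Ratios were computed with pandas 2.3.3 and numpy 2.4.6 under Python 3.11.15 and drawn with matplotlib 3.10.9, with a minimum of 1 FPKM and no pseudocount. A name on more than 1 locus (303 names) took the longest, and names joining several genes (443) entered no list. Persisting means past 1.5-fold in the same direction, and gone means an absolute log2 ratio under 0.2. Biotypes and promoters came from RefSeq, where 12491 names matched. A further 57 genes were listed at 0 in saline only and 79 in cocaine only, and carry no ratio. The named genes were the 10 largest each way, the persisting and gone genes, the highest, lowest and called list members and the study's own 24 h list. Protein-coding genes, and further list members such as Egr3, Aqp4, Bdnf and Homer1, were chosen after their values were seen. The members and lists were chosen with earlier results of these data known. Steps were tested on simulated data. No test was run, since values per library are not used here, and the alternatives were other minimums, folds, pseudocounts, loci and saline groups. A gene of the lists is not reported here.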

Additional observations from a re-analysis of the deposited data

Results flagged for a closer look

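Some genes were past 1.5-fold at 24 h in one direction and at another time in the other. The differences between times were not tested, since each rests on 1 pooled value per group. Against 2 h, Nr4a2 was at -0.78 at 24 h and 1.06 at 2 h, Nupr1l at -1.38 and 1.08, Cenpu at -0.60 and 0.65, Osr1 at -0.62 and 0.79, 4930522L14Rik at -0.62 and 1.02, and Tma7-ps at -0.62 and 1.96. Baiap2l2 was at 0.88 at 24 h and -0.89 at 2 h. Against 7 d, Hk2 was at 1.15 at 24 h and -0.92 at 7 d, Ttr at -0.71 and 4.53, Aloxe3 at -0.83 and 0.76, and Adamtsl4 at -1.55 and 1.02. Tma7-ps was at -0.62 at 24 h and 1.07 at 7 d.

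Loci without a gene name were outside the comparison. Of 331 such loci with status OK, a mean of at least 1 FPKM and both values above 0, 23 were past 1.5-fold higher and 22 lower, together 13.6%, with a median log2 ratio of -0.00. Of these loci 46 were under 300 bases.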

How the results depend on the processing

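No paired analysis was possible because the deposited values pool both libraries of a group, so that the shared replicate numbers carry no values, and leaving out a library could not be done either. Beside the 24 h counts as reported (187 higher, 142 lower; 2 h increases 39 persisting and 81 gone; 2 h decreases 18 and 71; 50 calls also past the fold at 7 d), the counts were, in the same order, as follows where they moved by over 1.5 times. A minimum of 5 FPKM gave 87 and 38, 16 and 30, 4 and 15, and 25, and a minimum of 0.1 FPKM gave 358 and 357, 122 gone increases, 36 and 135, and 116. Adding 1 FPKM left 41 and 31 gone, and adding 0.1 FPKM gave 65 and 31 persisting and 82 at 7 d. A lower fold (0.32 on the log2 scale) gave 539 and 466, 136 and 502, 80 and 380, and 162, and a fold of 2 gave 92 and 41, 12 and 16, 1 and 10, and 19. Loci of at least 300 bases left 32 at 7 d. Protein-coding genes only, chosen after seeing the data, gave 60 and 59, 21 persisting increases, 4 and 38, and 10. The saline of 2 h as control, shared with the 2 h comparison, gave 86 and 53 and 40 persisting decreases, and the saline of 7 d, shared with the 7 d comparison, gave 360 and 345, 71 and 43, 28 and 44, and 176. Centring, the choice of locus and leaving out names on several loci moved no count by over 1.5 times.

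Of 343 list medians under settings other than the control, 2 moved by more than 0.127, interferon to 0.11 with the minimum of 5 FPKM and choroid plexus to -0.18 with 1 FPKM added. Against saline of 2 h, medians that moved were histones 0.028, mitochondrial DNA -0.11, opioid genes -0.082, oligodendrocytes 0.034, astrocytes 0.056, collagens 0.040, choroid plexus -0.11, red blood cells 0.72 and long noncoding RNAs 0.19. Against saline of 7 d they were immediate-early factors 0.51, clock 0.33, complex I -0.30, complexes III to V -0.29, cytosolic ribosome -0.30, mitochondrial ribosome -0.24, proteasome -0.21, opioid genes -0.078, neurotrophins 0.14, astrocytes 0.077, mural cells 0.13, collagens 0.086, choroid plexus 1.05, red blood cells 0.27 and long noncoding RNAs -0.13. Called genes that changed sign did so against another saline group only. Against saline of 2 h they were Nr4a2 0.031, Ciart -0.14, Osr1 0.26, BC024978 0.52, Foxp4 0.12, Tma7-ps 1.60 and 4930522L14Rik 0.24. Against saline of 7 d they were Nr4a2 0.0068, Hk2 -0.39, Rtp4 -0.16, Ttr 1.93, Tcf7l1 0.28, BC024978 0.13, Foxp4 0.92, 5830428H23Rik 0.025, Aloxe3 0.084 and Tma7-ps 0.68. The cause was not tested. Depth is unknown, and ratios of genes at 1 to 2 FPKM are the least firm.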
